A study of Mus musculus with 15 samples.

Results

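The genes described here are 10 that load and run the replicative DNA helicase or mark DNA synthesis, namely Mcm2, Mcm3, Mcm4, Mcm5, Mcm6, Mcm7, Mcm10, Cdt1, Cdc6 and Pcna. They were picked by name for their role in licensing, and all 10 were found among the 55291 gene names that each expression table lists. Bulk RNA-seq had been done on 15 samples in 5 groups of 3, all from HY19636, 1 murine line of pancreatic ductal adenocarcinoma (PDAC) whose label gives mutant p53 and which the methods describe as derived on a C57BL/6 background with Ptf1a-Cre, a recombinase expressed in pancreatic progenitor cells. In culture, with serum-containing DMEM, the cells were left as controls, given DON, a Gln analog that blocks Gln-using enzymes, at 25 µM for 24 h, or kept without Gln for 24 h. In the animals, the same line had been placed in the pancreas of female B6J mice 8 to 10 weeks old, which received vehicle or DRP-104, a prodrug that releases DON, at 3 mg per kg given on 5 days with a pause of 2 days in each of 2 cycles, and the tumors were taken at day 21. These mice keep an immune system, and each tumor library therefore holds host cells as well as PDAC cells. The comparisons ask how the licensing genes respond to Gln antagonism and to Gln withdrawal in culture, and whether the tumor response to DRP-104 resembles them.

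Before each S phase, every replication origin is licensed once. The origin recognition complex and Cdc6 recruit Cdt1, which brings the ring of Mcm2 to Mcm7 and loads it around DNA. Mcm10 then takes part in firing the loaded helicase, and Pcna, the sliding clamp, holds the polymerases to the template. Geminin, the product of Gmnn, binds Cdt1 after origins fire and blocks reloading. Transcription of most of these genes is tied to the cell cycle through E2F factors, so they are widely used as markers of proliferating tumor cells.

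Each deposited value is the count of a gene after division by the size factor of its library, called a normalized read count here, in 1 table for DON, 1 for no Gln and 1 for the tumors. Depth was 25224177 to 48155949 reads in the culture libraries and 16339957 to 20687784 in the tumor libraries, and each member had at least 126 normalized read counts in every library. The 3 control columns of the culture tables carry names that match the titles of the vehicle tumors. They were taken as control cells because those tables are named for the control culture and the tumors have their own columns in the tumor table. Their reads correlated with those of the vehicle tumors at 0.958 at most, against 0.987 or more with one another. Both culture tables hold the same control reads for 55291 of 55291 genes, so the comparisons of DON and of no Gln with control cells share their control samples. Epithelial markers were present in every group, and of 10 fibroblast markers 7 had no read in any control library and 8 had none after DON. In counts scaled to library depth (CPM), the summed level of 10 epithelial markers was 13051 to 15507 CPM in control cells, 4189 to 4393 after DON and 5514 to 6118 without Gln. The part of that shift in the results was not tested.

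The members lie on 7 chromosomes, in the GRCm38 coordinates of the deposited annotation columns. Mcm5 (ENSMUSG00000005410, chromosome 8 from 75109528 to 75128439, plus strand) and Mcm6 (ENSMUSG00000026355, chromosome 1 from 128331590 to 128359664, minus strand) are described first below because they changed most in culture. Mcm4 (ENSMUSG00000022673, chromosome 16 from 15623897 to 15637400, minus strand) starts 466 bases from Prkdc, which encodes a DNA repair kinase and runs the other way. Mcm7 (ENSMUSG00000029730, chromosome 5 from 138164583 to 138172422, minus strand) overlaps Ap4m1 on the other strand by 421 bases at its start and Cops6 by 64 bases at its end. In the reference annotation the gene model Gm20388 covers Cdt1 on the same strand, and its values are not analysed here. The counting tool and its use of strand are not given in the sources used here, so reads in those stretches could have gone to either gene. The other members are Mcm2 (ENSMUSG00000002870, chromosome 6 from 88883475 to 88898780, minus strand), Mcm3 (ENSMUSG00000041859, chromosome 1 from 20802968 to 20820312, minus strand), Mcm10 (ENSMUSG00000026669, chromosome 2 from 4989714 to 5012791, minus strand), Cdt1 (ENSMUSG00000006585, chromosome 8 from 122568015 to 122573128, plus strand), Cdc6 (ENSMUSG00000017499, chromosome 11 from 98907801 to 98923940, plus strand) and Pcna (ENSMUSG00000027342, chromosome 2 from 132249162 to 132253314, minus strand). The pseudogene Pcna-ps1 is listed at 0 in all libraries and Pcna-ps2 had 7.49 to 26.3 normalized read counts, against 2163 or more for Pcna.

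The windows before the start of Mcm5, Mcm6 and Mcm10 are shown because Mcm5 and Mcm6 had the largest falls in culture and Mcm10 had the smallest of the 9 falls after DON. Each holds the 250 bases before the RefSeq start in GRCm38.p6, 5′ to 3′ on the strand of the gene, at chr8:75109259-75109508 (plus strand), chr1:128359706-128359955 (minus strand) and chr2:5012792-5013041 (minus strand). Capitals mark matches to the E2F letters TTTCCCGC, TTTCGCGC, TTTGCCGC or TTTGGCGC and to CCAAT, searched on both strands, where E2F matches may overlap each other.
Mcm5: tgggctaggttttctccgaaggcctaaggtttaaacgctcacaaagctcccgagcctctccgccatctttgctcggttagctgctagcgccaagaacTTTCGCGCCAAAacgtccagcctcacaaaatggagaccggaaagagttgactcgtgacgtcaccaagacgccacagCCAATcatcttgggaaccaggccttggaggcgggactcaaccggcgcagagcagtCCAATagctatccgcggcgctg
Mcm6: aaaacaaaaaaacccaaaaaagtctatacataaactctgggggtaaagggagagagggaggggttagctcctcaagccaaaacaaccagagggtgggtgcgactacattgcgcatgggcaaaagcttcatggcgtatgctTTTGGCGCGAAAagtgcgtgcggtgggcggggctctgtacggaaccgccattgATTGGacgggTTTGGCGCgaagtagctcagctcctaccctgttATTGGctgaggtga
Mcm10: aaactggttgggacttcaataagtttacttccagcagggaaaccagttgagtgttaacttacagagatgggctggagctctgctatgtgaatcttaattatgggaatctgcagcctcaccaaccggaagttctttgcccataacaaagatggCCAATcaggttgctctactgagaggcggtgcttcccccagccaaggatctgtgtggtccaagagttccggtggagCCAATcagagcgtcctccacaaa
The Mcm5 window has an overlapping pair of E2F matches, the Mcm6 window has an overlapping pair and a single one closer to the start, and the Mcm10 window has CCAAT matches only. RefSeq windows that run from 250 bases before to 50 after the start were on hand for 9 of the 10 members, and 6 of the 9 held an E2F match, namely Mcm3, Mcm5, Mcm6, Mcm7, Cdt1 and Cdc6. Over 32851 such windows (1 chromosome was left out), 2.26% held one. CCAAT was found for 7 of the 9 members and in 37.4% of all windows, and the letters CACGTG for 0 of the 9 members and in 7.15% of all windows. The shares of all windows count windows, and Mcm7 has an additional one. Of the members' 10 windows, 6 held an E2F match, 8 held CCAAT and 0 held CACGTG. A match describes letters in the window and says nothing on binding.

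Compared per length in control cells, Pcna was the most abundant member. It had 144 ± 20.4 RPKM (reads per kilobase of gene length, scaled to library depth, SD, n = 3), followed by Mcm7 at 91.7 ± 6.78. Mcm3 (66.7 ± 4.02 RPKM) and Mcm4 (62.3 ± 3.34 RPKM) came next and overlapped each other, as did Mcm5 (55.1 ± 2.71 RPKM) and Mcm2 (53.4 ± 0.696 RPKM). Mcm6 had 47.6 ± 1.35 RPKM and Cdt1 37.2 ± 1.13 RPKM. The lowest levels were those of Mcm10 (8.55 ± 0.0775 RPKM) and Cdc6 (8.43 ± 0.791 RPKM), whose ranges overlapped.

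After DON the order changed. Pcna (157 ± 15.1 RPKM) and Mcm7 (72.5 ± 6.10 RPKM) still led, and Mcm4, Mcm3 and Mcm2 followed at 46.3 ± 4.87, 41.8 ± 7.41 and 40.7 ± 1.46 RPKM. Mcm5 dropped behind Cdt1 and Mcm6, with 19.7 ± 3.05 RPKM against 32.1 ± 2.72 and 26.7 ± 3.17. Without Gln, Mcm4 (76.6 ± 6.07 RPKM) drew level with Mcm7 (71.7 ± 3.71 RPKM), the ranges of which overlapped, and Mcm6 was the lowest of the ring at 17.96 ± 2.03 RPKM. In vehicle tumors Pcna had 85.0 ± 9.54 RPKM and Mcm7 35.1 ± 5.48. Mcm4 (24.7 ± 3.58 RPKM) and Mcm6 (24.7 ± 2.74 RPKM) came next, and Mcm5 (12.7 ± 2.56 RPKM) was the lowest ring subunit. Mcm10 (2.94 ± 0.694 RPKM) and Cdc6 (1.89 ± 0.537 RPKM) were again the lowest members. With DRP-104 the corresponding levels were 84.8 ± 7.02 RPKM for Pcna, 33.6 ± 1.90 for Mcm7, 28.2 ± 1.89 for Mcm6 and 11.7 ± 2.68 for Mcm5.

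DON lowered 9 of the 10 licensing genes after 24 h, and Pcna was the exception. Mcm5, a subunit of the helicase ring, fell 3.10-fold, and Cdc6, Mcm6 and Mcm3 fell 2.12-fold, 1.98-fold and 1.78-fold. Falls of Mcm2, Mcm4, Mcm7, Mcm10 and Cdt1 were smaller. The 9 calls, all lower, compare with 34.7% of all 13556 tested genes called lower and 68.1% called in either direction, and 36.6% were lower with no overlap between the groups, as the same 9 members were. The members' median log2 fold change was -0.56, beside 0.023 for all genes tested. Scaling all libraries to equal totals moved the median of all genes to 0.17 and that of the members to -0.41. A list of 8 housekeeping genes had a median of -0.66, with 5 lower and 2 higher.

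Mcm5 had 1909.95, 2386 and 1779.7 normalized read counts in the 3 DON cultures and 6483, 6690.1 and 5579.98 in the control cultures, a log2 fold change of -1.63 ± 0.115 (SE) at an adjusted p of 2.13e-08 in limma. Every DON culture was far below every control culture. In bulk libraries, fewer cycling cells and less of a transcript per cycling cell cannot be told apart. Mcm6, another ring subunit, had 3492, 3908 and 3047 after DON and 6964, 7283 and 6369 in controls, a log2 fold change of -0.99 ± 0.102 (SE) at an adjusted p of 1.14e-06 in limma. Cdc6, the loading ATPase, had 612, 784 and 519.6 against 1231, 1451 and 1336 and a log2 fold change of -1.08 ± 0.140 (SE) at an adjusted p of 1.04e-05 in limma. The groups did not overlap for either gene, and the second DON culture was the highest of its group for both.

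Mcm3 had 3944, 5192 and 3774 normalized read counts after DON and 7657, 8311 and 6813 in controls, and its log2 fold change was -0.83 ± 0.120 (SE) at an adjusted p of 3.02e-05 in limma. Again the second DON culture was the highest, and it stayed below all controls. Mcm4 had 4916, 5548 and 4462 after DON and 7306, 7473 and 7420.1 in controls, where the controls were close together. For Mcm2 the values were 4168, 4249 and 3920.5 and 6187, 6033 and 5675. Mcm4, Mcm2 and Mcm7, the remaining ring subunits, all had groups apart and log2 fold changes of -0.58, -0.54 and -0.48 (limma adjusted p = 8.59e-05, 6.82e-05 and 0.000959). Mcm7 had 6161, 7076 and 6065 after DON against 9529.8, 9741 and 7779, with the lowest control still above the highest DON culture. Cdt1, which carries the ring to the origin, fell from 2701 ± 169 to 2103 ± 186 (SD, n = 3), a log2 fold change of -0.36 ± 0.0971 (SE) at an adjusted p of 0.00440 in limma.

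Mcm10, the helicase activator, had 1074, 1272 and 923 normalized read counts after DON and 1403, 1421 and 1309 in controls, a log2 fold change of -0.35 ± 0.120 (SE) at an adjusted p of 0.0184 in limma. The groups did not overlap, but this was the 1 of the 9 calls that rested on single libraries. It was lost without DON culture 1 or 3 or without control library 1 or 2, where adjusted p lay between 0.0515 and 0.118, and when libraries were scaled to equal totals (log2 fold change -0.21, adjusted p = 0.135, limma). Pcna had 7308, 7782 and 6359 after DON and 7242, 6523 and 7903 in controls. The groups overlapped, and the log2 fold change of -0.015 had a 95% interval of -0.23 to 0.20 (limma adjusted p = 0.900), so a fall of the size seen for Mcm5 lies outside it.

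**Figure D1:**
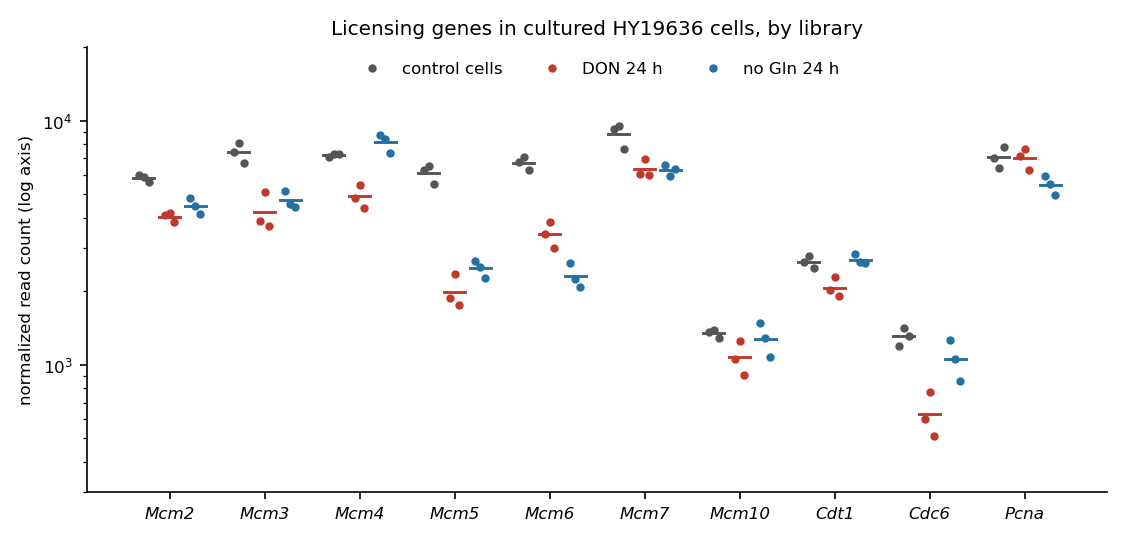
Normalized read counts (log axis) of the 10 members in the 9 culture libraries, scaled together, with a point per library and a line at each group mean (gray, control cells; red, DON; blue, no Gln). For Mcm5 the DON and no Gln libraries sit far below all control libraries, while for Mcm4 the no Gln libraries sit above them.

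Without Gln the same cells lowered 6 of the 10 members, namely 5 of the 6 subunits of the helicase ring and Pcna. Mcm6 fell 2.86-fold and Mcm5 2.42-fold, while Mcm3, Mcm7, Mcm2 and Pcna fell by smaller amounts. Mcm10, Cdt1, Cdc6 and Mcm4 did not pass the test. Of all 13390 genes tested, 34.9% were called lower and 69.4% in either direction. The groups were apart for 7 members, 6 lower (37.2% of all genes) and 1 higher (36.4%). The members' median log2 fold change was -0.35, beside 0.0059 for all genes tested and -0.52 for the 8 housekeeping genes, of which 6 were lower and 1 higher.

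Mcm6 had 2590.2, 2224 and 2049.9 normalized read counts in the 3 Gln-free cultures and 6563, 6879.6 and 6143 in the control cultures, a log2 fold change of -1.52 ± 0.0975 (SE) at an adjusted p of 3.26e-08 in limma. Mcm5 had 2626, 2490.3 and 2240.1 against 6109.5, 6319 and 5381, with a log2 fold change of -1.28 ± 0.0933 (SE) at an adjusted p of 1.02e-07 in limma. Neither gene had overlapping groups. Mcm3 fell from 7212 ± 640.1 to 4655 ± 399.9 (SD, n = 3), a log2 fold change of -0.63 ± 0.0936 (SE) at an adjusted p of 5.49e-05 in limma. Mcm7 had 6505, 5867 and 6261 against 8981, 9201 and 7502, and Mcm2 had 4758, 4432 and 4082 against 5831, 5699 and 5473. Both had every Gln-free culture below every control, with log2 fold changes of -0.46 and -0.36 (limma adjusted p = 0.000735 and 0.00195).

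Mcm4 was the ring subunit without a call. It had 8596, 8273 and 7251 normalized read counts without Gln and 6886, 7059 and 7156 in controls, so the Gln-free cultures were all higher, though the log2 fold change of 0.19 ± 0.0851 (SE) at an adjusted p of 0.0633 in limma missed the threshold. It passed in 4 of 15 alternatives. Among them were equal library totals (log2 fold change 0.30, adjusted p = 0.00826, limma) and fits without Gln-free culture 3 or control library 3 (limma adjusted p = 0.0265 and 0.0227). Cdc6 had 1253, 1041 and 849.8 against 1160.3, 1371 and 1289, with a log2 fold change of -0.30 ± 0.133 (SE) at an adjusted p of 0.0642 in limma, and the groups overlapped through Gln-free culture 1, without which the log2 fold change was -0.43 (limma adjusted p = 0.0131). Cdt1 went from 2566 ± 135 to 2663 ± 132 and Mcm10 from 1309 ± 41.8 to 1265 ± 199.6, with log2 fold changes of 0.054 (95% interval -0.13 to 0.24) and -0.061 (95% interval -0.31 to 0.19).
Pcna, which had not moved with DON beyond the spread between libraries, had 5849, 5428 and 4878 without Gln and 6825, 6161 and 7622 in controls. All Gln-free cultures were below all controls, with a log2 fold change of -0.35 ± 0.0989 (SE) at an adjusted p of 0.00674 in limma. On equal library totals this call was lost (log2 fold change -0.24, adjusted p = 0.0658, limma).

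**Figure D2:**
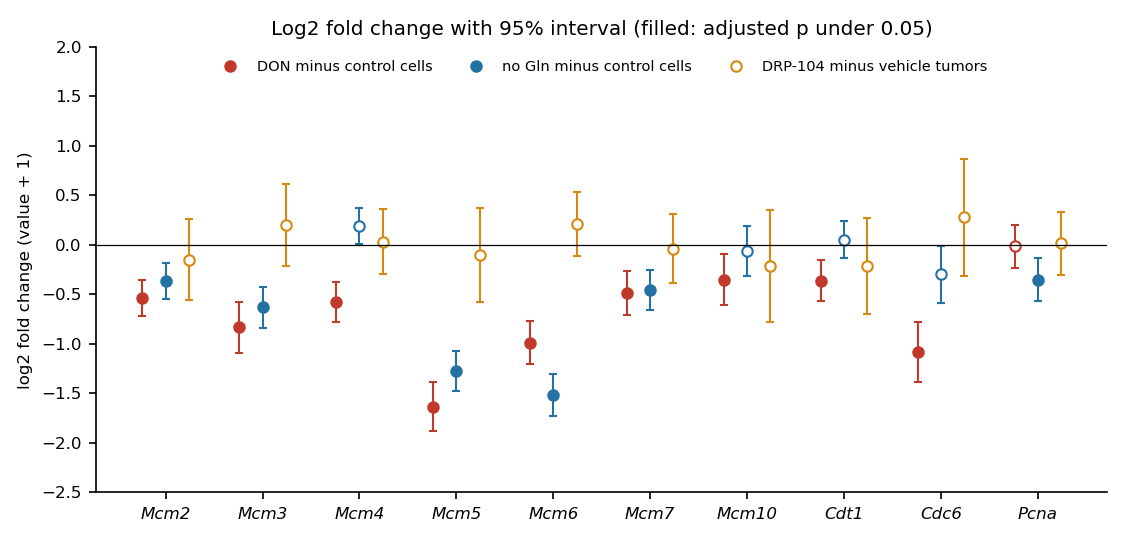
Log2 fold change of each member, on the log2(value + 1) scale, with its 95% interval from limma, for DON (red) and no Gln (blue) against control cells and for DRP-104 against vehicle tumors (orange), where filled points have an adjusted p under 0.05. Mcm5 and Mcm6 lie lowest in culture (-1.63 and -1.52), and all tumor intervals include 0.

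A direct test between the treated cultures used a fit of the 9 culture libraries scaled together. It separated DON from Gln withdrawal for 6 of the 10 members, a share no larger than the 63.3% of 13514 genes tested. Mcm4, Cdc6, Cdt1 and Mcm5 were lower with DON than without Gln, and Mcm6 and Pcna were higher with DON. The largest gaps were those of Cdc6, with a log2 difference (DON minus no Gln) of -0.76 ± 0.152 (SE) at an adjusted p of 0.000448 in limma, and Mcm4, with -0.74 ± 0.0885 (SE) at an adjusted p of 3.16e-06 in limma. Mcm6 differed by 0.56, Cdt1 by -0.38 and Pcna by 0.37 (limma adjusted p = 0.000192, 0.00105 and 0.00386). The treated groups did not overlap for these 5 genes, a smaller share of the 10 members than the 71.7% of all genes. Of all genes, 31.0% were called higher with DON and 32.3% lower. The difference for Mcm5 was -0.32 (limma adjusted p = 0.0155), with overlapping groups, and it did not pass without DON culture 1 or 3 or Gln-free culture 1 (adjusted p = 0.0634, 0.0893 and 0.0709). The other members did not pass, with 95% intervals of -0.31 to 0.019 for Mcm2, -0.41 to 0.074 for Mcm3, -0.19 to 0.20 for Mcm7 and -0.52 to 0.012 for Mcm10. Without DON culture 2, Mcm3 and Mcm10 passed as well (limma adjusted p = 0.0153 and 0.0205), and without Gln-free culture 3 so did Mcm10 (limma adjusted p = 0.0224).

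The 6 ring subunits enter the helicase in equal numbers, and their transcripts did not keep their proportions. In control cells Mcm5 made up 14.6% ± 0.322 (SD, n = 3) of the summed RPKM of the 6 genes, against 7.94% ± 0.395 after DON and 8.68% ± 0.235 without Gln. Mcm6 made up 12.6% ± 0.145 in controls, 10.8% ± 0.408 after DON and 6.35% ± 0.327 without Gln. The share of Mcm4 was 16.6% ± 1.28 in controls and 18.7% ± 0.343 after DON, and without Gln it reached 27.1% ± 1.09. Within single libraries the reads of Mcm6 were 0.858 to 0.975 times those of Mcm4 in control cells, 0.683 to 0.710 times after DON and 0.269 to 0.301 times without Gln. These ratios do not depend on library scaling, and the 3 groups were apart, though with 3 against 3 an exact permutation test cannot go below a p of 0.1. In the tumors the share of Mcm6 was 18.7% ± 0.942 with vehicle and 21.04% ± 1.75 with DRP-104, above all culture groups, and that of Mcm5 was 9.50% ± 0.849 and 8.70% ± 1.80.

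**Figure D3:**
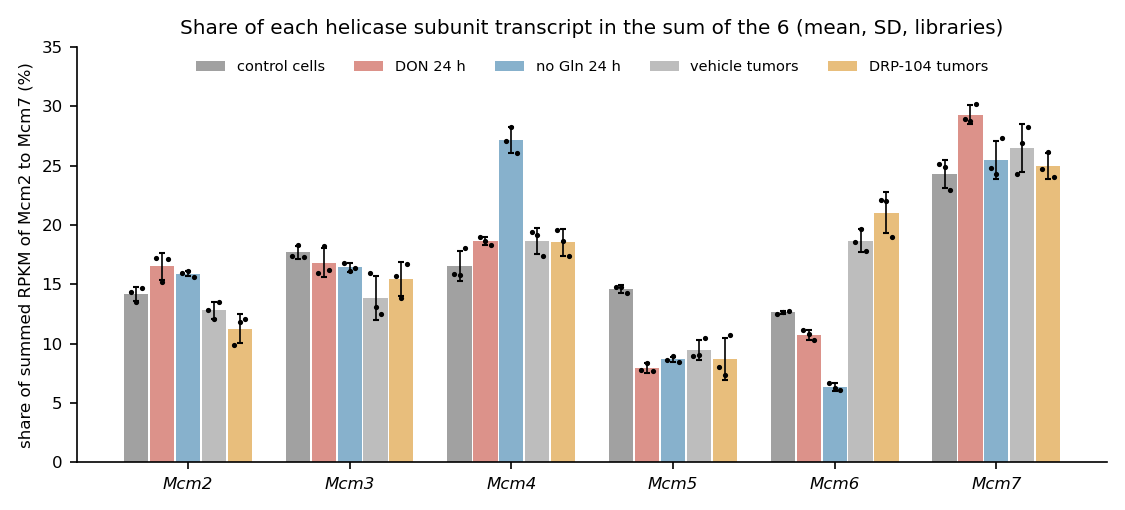
Share (%) of each helicase subunit transcript in the summed RPKM of Mcm2 to Mcm7, by group, with bars at the mean, error bars of 1 SD and a point per library (n = 3 per group). Without Gln, the share of Mcm4 rises to 27.1% ± 1.09 and that of Mcm6 drops to 6.35% ± 0.327.

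No licensing gene passed the test for DRP-104 in tumors. The tumor groups were apart in 1 of 6 ratios between genes that were computed, that of Mcm6 to Mcm4, with 1.37, 1.43 and 1.33 reads of Mcm6 per read of Mcm4 in the DRP-104 tumors and 1.16, 1.25 and 1.24 in the vehicle tumors, where an exact permutation test of 3 against 3 cannot go below a p of 0.1. Log2 fold changes of the 10 members ran from -0.21 (Cdt1) to 0.28 (Cdc6), with a median of -0.011 beside -0.010 for all genes tested, and the treated and vehicle tumors overlapped for all 10, where 10.6% of all genes did not. Adjusted p lay between 0.916 and 0.991 (limma). No gene of 15454 was called in this comparison by limma or edgeR (percent called 0), while 775 genes (5.01%) had an unadjusted p under 0.05 and DESeq2 called 56 genes, none of them a member.

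Mcm5 had 699, 646 and 919.6 normalized read counts in the DRP-104 tumors and 803, 653 and 974 in the vehicle tumors, a log2 fold change of -0.10 ± 0.207 (SE) at an adjusted p of 0.966 in limma. Its 95% interval of -0.57 to 0.38 leaves out the fall seen with DON in culture. Mcm6 had 2454, 2462 and 2073 against 2112, 1811 and 2109.97, and its interval of -0.11 to 0.54 also lies above its change in either culture. Cdc6 had 205, 190.3 and 207 against 211, 126 and 169, a log2 fold change of 0.28 ± 0.256 (SE) at an adjusted p of 0.925 in limma. The DRP-104 tumors were close together for Cdc6 and lay within the range of the vehicle tumors. Mcm3 had 1375, 1223 and 1436 with DRP-104 and 1433, 948 and 1166 with vehicle, and Mcm4 1798, 1719.9 and 1558 and 1820.4, 1449.95 and 1699. The second vehicle tumor was the lowest of its group for both, as it was for every member but Cdt1, and without that tumor too no member passed. Their log2 fold changes were 0.20 and 0.034, with intervals of -0.21 to 0.61 and -0.30 to 0.37. Mcm2 had 848, 1025 and 1019.6 against 1129.6, 862 and 1237, Mcm7 1872, 1991 and 1781 against 1879, 1683 and 2275, and Mcm10 203, 215 and 268 against 277, 202 and 322. Pcna, the most abundant, had 2494, 2257 and 2550.1 and 2408, 2163 and 2659.6. For Mcm2, Mcm7 and Mcm10 the log2 fold changes were -0.15, -0.038 and -0.21, and for Pcna 0.017 with an interval of -0.30 to 0.33. Cdt1 had 537, 637 and 399 with DRP-104, where the third tumor was lowest, against 517, 618 and 666, with an interval of -0.70 to 0.28.

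The tumors hold stroma that the cultures lack, and the licensing genes were measured over the mixture. The summed level of 10 fibroblast markers was at most 37.9 CPM in the cultures, 2146 to 4417 CPM in vehicle tumors and 1094 to 1722 in DRP-104 tumors, and 6 of the 10 were lower in all DRP-104 tumors, beside 5.75% of all genes. For 7 endothelial markers the sums were 144 to 168 and 102 to 124, again apart. The 10 epithelial markers summed to 6858 to 8911 and 7047 to 10695. Macrophage and neutrophil markers, 10 in all, summed to 322 to 447 with vehicle and 212 to 471 with DRP-104. A list of 10 T cell markers summed to 3.05 to 5.76 with vehicle and to 2.75, 4.05 and 84.9 with DRP-104. For 10 acinar markers the sums were 3.73, 4.79 and 144 with vehicle and 44.5, 8.51 and 13.9 with DRP-104. Those of 8 B cell markers were 88.2, 4.54 and 3.15 with vehicle and 6.38, 3.67 and 56.5 with DRP-104. Islet markers, 8 in all, summed to 32.5 to 55.1 and 44.7 to 63.0. The part of these shifts in the licensing genes was not tested. In a separate deposited FPKM table (fragments per kilobase of gene, scaled to depth), whose columns could not be matched to these tumors, the log2 fold changes of the members ran from -0.30 to 0.38, with adjusted p of 0.630 or more (limma), and 6 of the 10 had the opposite sign. In that table Col1a1, a collagen gene named after its values were seen, had a log2 fold change of 1.08, against -1.21 in the normalized read counts. In the FPKM table, 8 of the 10 fibroblast markers and 7 of the 7 endothelial markers had log2 fold changes above 0, with medians of 0.24 and 0.27. So did 8 of 8 acinar and 7 of 8 islet markers found there, with medians of 0.96 and 2.97. The same held for 4 of 10 epithelial, 5 of 8 macrophage and neutrophil, 1 of 3 T cell and 0 of 4 B cell markers.

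**Figure D4:**
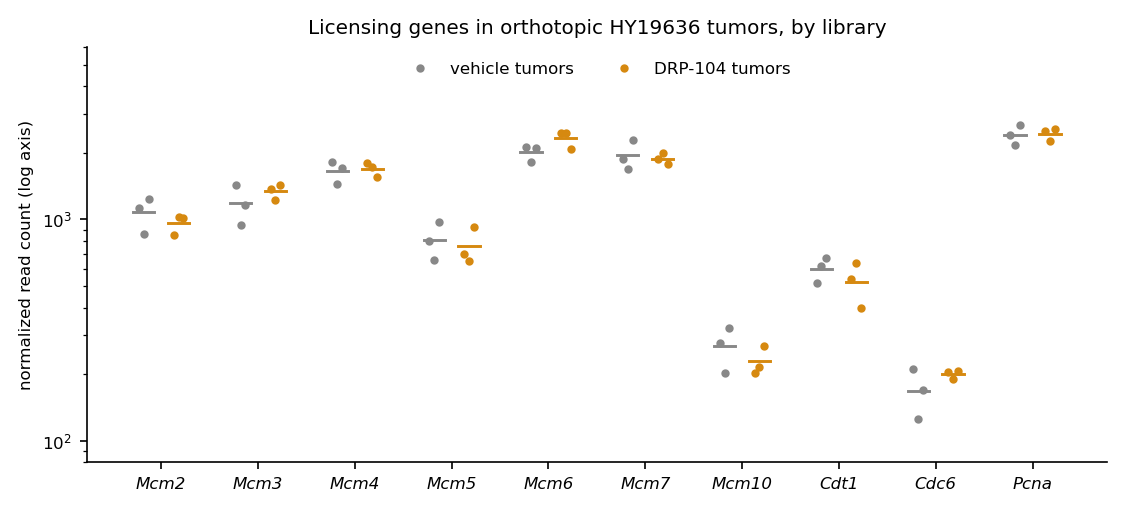
Normalized read counts (log axis) of the 10 members in the 6 tumor libraries, with a point per tumor and a line at each group mean (gray, vehicle; orange, DRP-104). The groups overlap for all 10 members.

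The response to DRP-104 in tumors differed from the response to DON in culture for 5 members when the difference itself was tested, in a fit of the 12 libraries with each treatment set against its own control. Mcm5, Cdc6, Mcm6, Mcm3 and Mcm4 had higher values of the tumor change than of the culture change, with log2 differences (DRP-104 effect minus DON effect) of 1.53, 1.36, 1.20, 1.03 and 0.61 (limma adjusted p = 0.000384, 0.00231, 0.000179, 0.00344 and 0.0115). Of all 15070 genes tested, 19.1% differed in this direction and 33.1% in either, with 2875 higher and 2114 lower, a split that turned to 2377 higher and 2910 lower on equal library totals. On those totals Mcm4 did not pass (limma adjusted p = 0.0528), nor did it after quantile normalization (limma adjusted p = 0.0638), and Mcm7 passed without vehicle tumor 3 or control library 3 (limma adjusted p = 0.0316 and 0.0363). Against Gln withdrawal, Mcm6, Mcm5 and Mcm3 differed, by 1.73, 1.18 and 0.83 (limma adjusted p = 9.78e-06, 0.00142 and 0.00582). These 3 of the 10 members compare with 18.6% of 14979 genes in this direction and 36.7% in either, the last a larger share. Cdc6 passed here without vehicle tumor 1 and Mcm7 without vehicle tumor 3 or control library 3 (limma adjusted p = 0.0418, 0.0247 and 0.0360). The agent, its dose, the time and the presence of host cells all differ between tumors and cultures and cannot be told apart. In level, vehicle tumors had 12.7 ± 2.56 RPKM of Mcm5 and 18.5 ± 4.44 of Mcm3, against 55.1 ± 2.71 and 66.7 ± 4.02 in control cells. The tumor libraries include host cells, and this difference in level was not tested.

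Other genes of the pathway were followed as lists, whose counts are to be read beside those of all genes tested, of which 33.3% were called higher and 34.7% lower after DON and 34.5% higher and 34.9% lower without Gln. In origin recognition and licensing control, 4 of 12 genes rose after DON and 4 fell, shares close to those of all genes. Orc1, the large subunit of the origin recognition complex, fell by 1.22 on the log2 scale (limma adjusted p = 8.76e-05), and Mcm8, a helicase of homologous recombination, rose by 0.51. Without Gln 4 of 12 rose and 3 fell, with Orc4 highest at 1.81 and Gmnn lowest at -1.13 (limma adjusted p = 4.90e-07 and 5.17e-06). Gmnn went from 1204 ± 141 to 541 ± 80.5 normalized read counts after DON and from 1145 ± 141 to 521 ± 66.7 without Gln. Cdt1, the protein partner of geminin, had log2 fold changes of -0.36 and 0.054 beside -1.15 and -1.13 for Gmnn. The reads of Gmnn per read of Cdt1 were 0.363 to 0.511 in control cells, 0.239 to 0.271 after DON and 0.180 to 0.211 without Gln.

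Of 12 genes that fire the helicase, 7 fell after DON and 8 without Gln, with 2 and 1 higher, where 34.7% and 34.9% of all genes fell. Gins1 (log2 fold change -0.87 after DON) and Gins2 (-1.40 without Gln), both of the GINS complex, fell most, while Mtbp (0.79 after DON) and Recql4 (0.71 without Gln) rose. Among 12 polymerase and primase genes, 8 fell in each comparison and 4 and 3 rose, with Pole, the leading-strand polymerase, at -1.96 after DON and Pold1, a subunit of polymerase delta, at -1.64 without Gln. Of 22 genes of clamp loading and the fork, 15 fell after DON and 14 without Gln, with 1 higher in each. Lig1, the ligase that joins Okazaki fragments, went from 5405 ± 382 to 2088 ± 247 normalized read counts after DON and from 5134 ± 306 to 632 ± 78.1 without Gln (log2 fold changes -1.38 and -3.02, adjusted p = 3.68e-08 and 2.02e-10, limma). The 11 genes that turn over licensing factors, such as Cdc20 and Ccnf, had 8 falls after DON and 7 falls and 1 rise without Gln.

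S-phase genes outside the licensing set and mitotic genes had lower medians than the members. Beside 34.7% and 34.9% of all genes called lower, 12 of 14 S-phase genes fell after DON (median log2 fold change -1.37) and 8 fell and 1 rose without Gln (median -1.07). Tk1, thymidine kinase, had a log2 fold change of -3.08 after DON and -2.92 without Gln. All 13 mitotic genes fell in both, with medians of -2.24 and -2.10, and Plk1, a mitotic kinase, went from 3307 ± 385 to 296 ± 80.2 normalized read counts after DON. In the replication checkpoint list 4 of 9 genes were higher and 1 lower after DON, beside 33.3% and 34.7% of all genes, and 6 were higher and 1 lower without Gln, beside 34.5% and 34.9%. In it Cdkn1a, which encodes an inhibitor of cyclin-dependent kinases p21, rose by 0.90 and 1.46 (limma adjusted p = 2.00e-06 and 2.45e-08) and Wee1, a kinase that restrains mitotic entry, fell by 1.49 and 0.79 on the log2 scale.

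E2f1 and E2f2, regulators of the G1/S switch, differed between the treatments. E2f1, a transcription factor that activates S-phase genes, had 2279 ± 327 normalized read counts after DON against 1305 ± 36.0 in controls, a log2 fold change of 0.79 ± 0.109 (SE) at an adjusted p of 1.91e-05 in limma. Without Gln it had 805 ± 53.6 against 1240.3 ± 32.7, a log2 fold change of -0.62 ± 0.0970 (SE) at an adjusted p of 8.09e-05 in limma. The direct difference, DON minus no Gln, was 1.45 ± 0.103 (SE) at an adjusted p of 1.16e-08 in limma. E2f2 fell by far more after DON (-2.60) than without Gln (-0.37), with a direct difference of -2.20 (limma adjusted p = 1.81e-09). Over the whole list of 17 genes, 3 rose and 9 fell after DON, and 5 rose and 9 fell without Gln.
In tumors 0 of the genes on these 9 lists were called. The smallest p was that of Rfc4, a clamp loader subunit, with a log2 fold change of 0.58 (limma adjusted p = 0.916), and in the FPKM table it had the opposite sign, -0.41. Cdkn1a had 0.53 and Ccnb2, a mitotic cyclin, -0.38, beside 0.85 and -0.55 in the FPKM table. The smallest p of the other lists was that of E2f8 (log2 fold change -0.93), Pold3 (0.44), Mcm9 (0.37), Ccna2 (-0.36), Dbf4 (-0.31) and Cul4a (-0.23). Each had an adjusted p of 0.916 in limma. The median of the mitotic list was -0.16 in tumors, and 4 of its 13 genes were lower in all DRP-104 tumors than in all vehicle tumors, where 5.75% of all genes were. In the FPKM table its median was -0.23, with 0 of the 13 genes above 0.

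**Figure D5:**
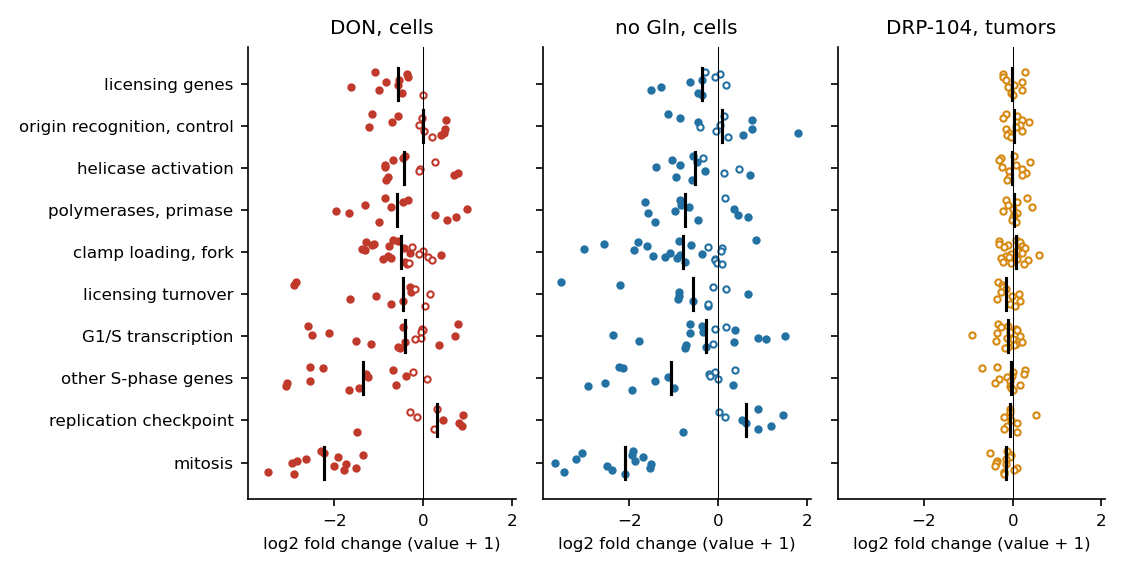
Log2 fold changes, on the log2(value + 1) scale, of the genes of 10 lists for DON and no Gln in cells and DRP-104 in tumors, with a point per gene (filled, adjusted p under 0.05) and a bar at each list's median. In cells the mitotic list has medians of -2.24 and -2.10 and the licensing genes -0.56 and -0.35, while in tumors the medians stay between -0.16 and 0.08.

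Prkdc, the divergent neighbor of Mcm4, was also followed. After DON it had 1763, 1448 and 1792 normalized read counts and in controls 921, 1141 and 1198, a rise of 0.62 ± 0.123 (SE) at an adjusted p of 0.000493 in limma. Mcm4 fell in these cultures, so the genes on either side of this stretch of 466 bases moved in opposite directions. Without Gln the log2 fold change of Prkdc was 0.29 ± 0.121 (SE) at an adjusted p of 0.0462 in limma, with overlapping groups, beside 0.19 for Mcm4, and in tumors it was 0.37 (limma adjusted p = 0.916). Ap4m1, which overlaps the start of Mcm7, had log2 fold changes of -0.10 after DON and -0.52 without Gln (limma adjusted p = 0.493 and 0.00203), beside -0.48 and -0.46 for Mcm7. Cops6, which overlaps the end of Mcm7, had 2787, 2664 and 2764 normalized read counts after DON against 5304, 5083 and 4393 in controls. Without Gln it had 3532, 3204 and 3614 against 4999, 4801 and 4236.

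Over the 9 culture libraries, the genes that followed the mean standardized level of the members most closely were Gmds (Pearson r = 0.979), Mms22l (0.978), Wnt4 (0.977), Cdca8 (0.975) and Stt3b (0.974), among 10421 genes with a mean of at least 100. Each member was also set against the mean of the other 9. Mcm3 (r = 0.971), Mcm2 (0.964) and Mcm5 (0.943) followed it closely, Cdc6, Mcm7 and Mcm10 at 0.812 to 0.895, Mcm6 (0.696), Cdt1 (0.681) and Mcm4 (0.550) less, and Pcna hardly (0.180). Over the 6 tumors the closest were Pomgnt1 (0.991), Zfp846 (0.983), Gnpda1 (0.982), Fam98a (0.979) and Hexim1 (0.978), among 10918 genes, and the members ran from -0.193 (Cdt1) to 0.747 (Mcm7). These correlations describe few libraries that share their group and scaling.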

How the data were processed

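RNA was extracted with TRIzol and columns and sequenced by Novogene, who aligned reads with HISAT2 and ran DESeq2. The submitters' notes also list STAR, CASAVA and GRCm39, while the gene coordinates of the deposited FPKM table match GRCm38 and were used as such. The counter and its use of strand are not given in the sources used here. The deposited expression values are a signal that the authors made by dividing gene counts by 1 size factor per library. Dividing by that factor's step gave whole reads (tolerance 0.0051) for at least 99.9946% of values in each library. The authors' FPKM values for tumors came from a separate table whose columns matched groups but not samples. Columns of fold changes and p-values in the deposited tables, which hold the authors' own comparisons, were not used.

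Genes with a mean of at least 10 were tested on log2(value + 1) with limma 3.58.1 (lmFit, eBayes with trend, R 4.3.3) and Benjamini-Hochberg adjustment over all genes tested, and a gene was called at an adjusted p under 0.05. Fold changes on this scale understate the change of low genes. DON was set against no Gln after scaling the recovered reads of the 9 culture libraries together, and tumor effects against culture effects as interaction contrasts on 12 libraries, in which each table kept its own normalization. edgeR 4.0.16 and DESeq2 1.42.0 on recovered reads, other pseudocounts, filters and scalings, and leaving out each library were alternatives, of which scaling to equal totals and the 6-library fit without controls were added after seeing the data. Among genes with 1 to 20 reads, 69.6 to 72.7% had even counts in culture and 41.9 to 46.5% in tumors. The cause was not tested, and the depths given for cultures and tumors may not count the same unit. RPKM came from recovered reads and the deposited gene lengths. Scripts were tested on simulated data. There limma called 24% of 2-fold and 80% of 4-fold changes in the tumor comparison, and 96% and 100% for DON against control cells. Promoter windows are from RefSeq (GRCm38.p6), and Mcm4 and Prkdc had no window.

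The members and gene lists were chosen with earlier results of these data known. Of each list, the gene with the smallest p in tumors was named. In the cell comparisons, named list genes had the largest rise or fall among called genes, but not every such gene was named. Genes next to members, pseudogene copies, and the 5 genes most similar in level were also named. E2f1 and E2f2 without Gln and Gmnn after DON are given beside their values in the other culture. Nothing says that the 3 samples of a group came from separate cultures, so p-values in culture measure the spread between these samples, which may be technical. With 3 against 3, an exact permutation test of a single value cannot give a p below 0.1.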

Additional observations from a re-analysis of the deposited data

Results flagged for a closer look

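For 5 members the change with DRP-104 in tumors differed from the change with DON in culture by a test of the difference itself (limma interaction contrast, Benjamini-Hochberg adjustment over 15070 genes). The log2 difference, tumor effect minus culture effect, was 1.53 for Mcm5, 1.36 for Cdc6, 1.20 for Mcm6, 1.03 for Mcm3 and 0.61 for Mcm4. In each case the culture value was below 0 and called, and the tumor value was not called. Dose, duration, agent and host cells differ between the experiments and cannot be told apart.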

How the results depend on the processing

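None of the 36 log2 values that turned sign under an alternative had passed the test as reported. Of 1110 recomputed values of single members, 1043 kept their direction and side of the threshold, 15 moved past it and 16 lost it, and the cause was not tested. The number of members called ranged from 8 to 9 for DON, from 6 to 7 for no Gln and from 5 to 8 between the treated cultures, and was 0 for DRP-104 under every alternative run. After quantile normalization the members' median for DON was -0.38, and the values that turned were Pcna with DON (0.17), Cdt1 without Gln (-0.0044), Mcm7 in tumors (0.0074), and Mcm10 (-0.053) and Pcna (-0.097) for the tumor effect minus the DON effect. On equal library totals those were Pcna with DON (0.13), Mcm10 without Gln (0.045) and, for the tumor effect minus the DON effect, Mcm10 (-0.020), Cdt1 (-0.011) and Pcna (-0.13). In the FPKM table, Mcm2 (0.18), Mcm4 (-0.10), Mcm5 (0.095), Mcm7 (0.095), Cdt1 (0.38) and Pcna (-0.30) had the opposite sign. DESeq2 called 56 genes in tumors where limma and edgeR called 0. At an adjusted p under 0.01, 3007 genes differed between the tumor and DON effects and 3429 between the tumor and no Gln effects, because fewer genes pass a stricter limit.

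Leaving out 1 library at a time, Pcna ranged from -0.087 to 0.067 with DON and Mcm10 from -0.17 to 0.057 without Gln. In tumors the ranges were -0.058 to 0.11 for Mcm4, -0.25 to 0.044 for Mcm5, -0.14 to 0.080 for Mcm7 and -0.058 to 0.090 for Pcna. Between DON and no Gln, Mcm7 ranged from -0.064 to 0.049. For the tumor effect minus the DON effect the ranges were -0.047 to 0.29 for Mcm10, -0.0036 to 0.33 for Cdt1 and -0.050 to 0.11 for Pcna.

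Deviations of same-numbered samples from their group means correlated at -0.44, 0.05 and -0.46 in tumors and at -0.05, 0.01 and 0.26 between DON and no Gln. With 3 libraries per group these values cannot decide whether the replicate numbers pair the samples. With a replicate block, 0 genes were called in tumors. Between DON and no Gln, fitted on 6 libraries, 9237 genes and 8 members were called, Mcm2 and Mcm10 in addition (adjusted p = 0.0375 and 0.0243, limma). The main fit without a block had called 8549 genes and 6 members. No paired analysis was possible for DON or no Gln against control cells, nor for tumor minus culture effects, because the control columns carry no sample's number. The fewest normalized read counts behind a member were 519.65 in culture and 126.16 in tumors, both for Cdc6.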
